A study of Homo sapiens with 9 samples.

Results

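The myotubularins are a family of lipid phosphatases, and 10 of its genes were followed here: MTM1, MTMR1, MTMR2, MTMR3, MTMR4, MTMR6, MTMR9, MTMR10, MTMR12 and MTMR14, out of 19775 genes that had a probe set of their own on the array. They were taken as a gene family around MTMR6. MTMR6 itself was chosen by its log2 difference from control in these arrays, in which it ranked 1 of 12505 genes tested with either form of the miRNA described below. Its differences from control are therefore given as a description, with no test. All 26 probe sets annotated to these genes alone were examined, and 20 of them passed a filter on brightness, with at least 1 for each gene.

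The cells were SW1783, an established human glioma line. Expression was measured on Affymetrix arrays 24 h after transfection with a miRNA duplex at 50 nM, with 3 biological replicates a group: miR-376a*A (here the A form), then miR-376a*G (the G form), then a control miRNA. No group was left untransfected. The A form is unedited; the G form carries guanosine in place of the inosine made by A-to-I editing within the seed, which does most of the pairing to target transcripts. The study compared each form with the control. The transfections are a model of excess miRNA in 1 cell line, and the labels do not name the control sequence. Marker genes were mixed: VIM and CD44 were bright in every array (at least 2220 and 2120 signal units), SLC1A3 was at 91.5 to 124 units, and the astrocyte markers GFAP and S100B stayed under 4 units. Of 9 astrocyte and glioma markers 4 passed the filter. The summed signal of these markers was 4550 to 5190 with the A form, 4520 to 4980 with the G form and 4560 to 7690 in control. Of 5 neuronal markers 4 passed, and of 5 epithelial markers 2. The high upper end in control was not particular to the astrocyte and glioma markers. Neuronal markers reached 3180 in control against 2380 and 2310 with the A and G forms, and epithelial ones 1860 against 1350 and 1430.

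RefSeq's mature form of the unedited strand, formerly called miR-376a*, is shown because its seed (bases 2 to 8, in capitals) holds the base that differs between the duplexes. It lies at chr14:101040788-101040809 on the plus strand of GRCh38.p14.

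hsa-miR-376a-5p: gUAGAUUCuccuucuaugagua

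Myotubularins remove the phosphate at the D3 position of phosphoinositides, chiefly from PI3P, the lipid that marks early endosomes and growing autophagosomes. Several family members have lost catalytic activity and pair with an active one, whose activity or location they change. Of the 10 genes, 7 encode active phosphatases, and MTMR9, MTMR10 and MTMR12 (3 genes) encode inactive ones. MTMR6 is active, and MTMR9 is its partner. MTMR6 is also known as an inhibitor of the potassium channel KCNN4.

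Control replicate 1 stood apart: its best rank correlation with another array was 0.941, where the remaining arrays reached 0.969 to 0.970. The brightest probe set of 9 of the 10 myotubularins was at its lowest among the controls in that array, as were those of 39.9% of all genes tested. Relative to the mean of control replicates 2 and 3, its signal was 0.278 for MTMR12, 0.295 for MTMR6 and 0.49 for MTM1. Its part in the differences from control was tested only by leaving it out.

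MTMR6 was several-fold brighter after either form of miR-376a* than after the control miRNA, at the brighter of its 2 probe sets. That one gave signals of 526, 437 and 423 in the A arrays, 569, 588 and 559 in the G arrays, and 38.5, 138 and 123 in the control arrays. The lowest of the 6 miR-376a* arrays lay 3.07-fold above the highest control, and control replicate 1 lay far below the other controls. On the scale of log2(signal + 16), quantile normalized, the difference from control was 2.24 (SE 0.34) with the A form and 2.53 (SE 0.34) with the G form, or 4.72-fold and 5.79-fold. Without control replicate 1 these differences were 1.74 (SE 0.10) and 2.03 (SE 0.10), or 3.33-fold and 4.08-fold. In bulk RNA such as this, fewer cells with a transcript and less of it per cell cannot be told apart. Both comparisons use the same control arrays.

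The second MTMR6 probe set was dim and did not pass the filter. It gave 29.4, 17.1 and 16.5 with the A form, 33.3, 29.3 and 31.4 with the G form, and 1.29, 12.6 and 9.10 in control. No miR-376a* array overlapped a control array, but the signals are close to the added constant of 16, which compresses differences. Its log2 differences were 0.68 (SE 0.21) with the A form and 1.06 (SE 0.21) with the G form, and 0.46 and 0.83 without control replicate 1. Over the 9 arrays the normalized log2 values of the pair of probe sets correlated with Pearson's r = 0.95, a description of arrays that share their groups.

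**Figure D1:**
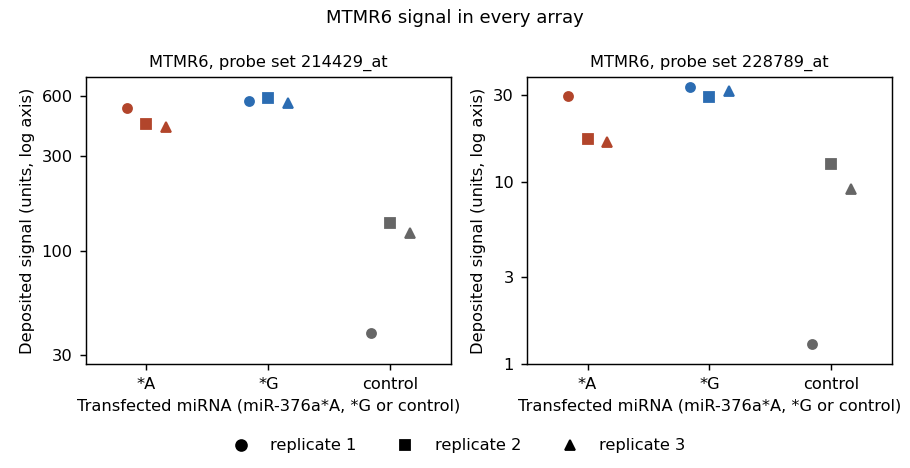
Deposited signal (log axis) of the 2 MTMR6 probe sets in each array, by transfected miRNA, with a symbol for each replicate number. All 6 arrays of the 2 miR-376a* forms lie above all 3 control arrays at both probe sets, and control replicate 1 is the lowest point in each panel.

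The difference in MTMR6 between the 2 forms was smaller than that of either from control. At its brighter probe set MTMR6 averaged 462 ± 55.9 with the A form and 572 ± 14.8 with the G form (SD, n = 3 each), and the groups did not overlap. The log2 difference was -0.29 (SE 0.34, 95% interval -1.04 to 0.46), with limma adjusted p = 0.933, so a difference between the forms was not detectable with all arrays. The spread in this test is shared by the 3 groups. Without control replicate 1 the difference was still -0.29, with SE 0.09, an interval of -0.50 to -0.09 and limma adjusted p = 0.0796. At the dim probe set the forms overlapped, with a log2 difference of -0.37 (SE 0.21, adjusted p = 0.854 over all probe sets).

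None of the 9 other myotubularins passed the test against control with either form. With the A form, limma called 0 of 9 higher and 0 lower (0 with an unadjusted p under 0.05), where 3.33% of all 12505 genes tested were called (1.95% higher, 1.38% lower). With the G form, 0 were called (1 with an unadjusted p under 0.05), where 4.62% of all genes were (2.50% higher, 2.12% lower; 578 genes, or 360 with the replicate number as a block). Of their 24 probe sets tested singly, 0 passed with either form (2 and 2 with an unadjusted p under 0.05), where 0.911% and 1.24% of all probe sets did. The log2 differences of the 9 genes ran from -0.31 to 0.12 with the A form (median -0.13) and from -0.37 to 0.27 with the G form (median -0.05), while the median over all genes was 0.01 in both. Adjusted p ran from 0.396 to 0.982 and from 0.0553 to 0.948 in limma. With 9 genes and called shares of this size, 0 calls do not set the family apart from the rest of the genes.

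Leaving out control replicate 1 changed this. Then MTM1, MTMR9 and MTMR12 (3 genes) fell with the A form, where 13.4% of all genes were called (6.41% lower). MTM1 and MTMR1 (2 genes) fell with the G form, where 17% were called (8.48% lower). These counts rest on 2 control arrays.

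**Figure D2:**
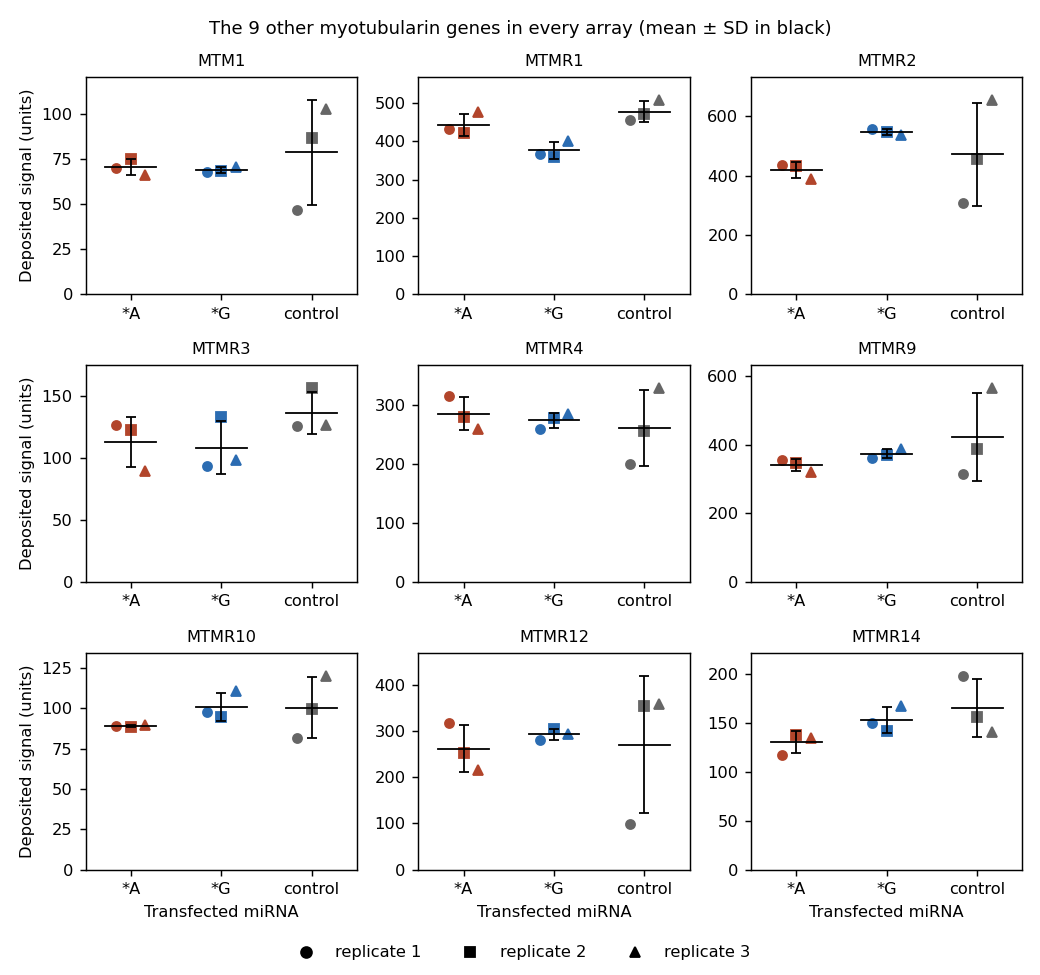
Deposited signal (linear axis from 0) of the brightest probe set of the 9 myotubularins other than MTMR6 in each array, by transfected miRNA, with the mean and SD of 3 arrays in black. MTMR12 at 99.1 and MTM1 at 46.5 in control replicate 1 lie far below their other controls, and the A form and the G form arrays of MTMR2 do not overlap.

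**Figure D3:**
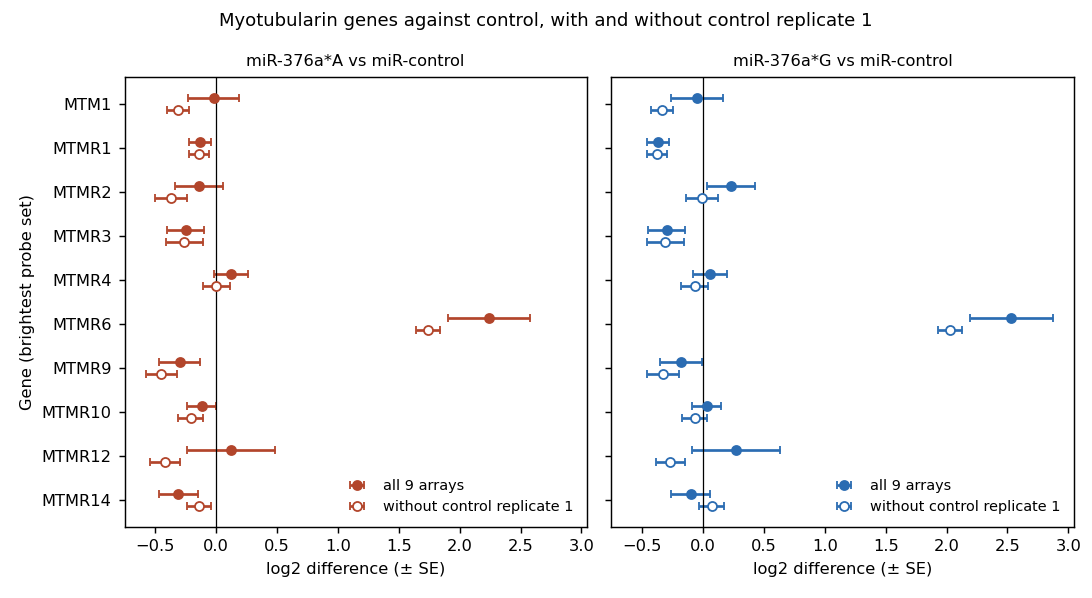
Difference from control in log2 units (± SE) for the 10 myotubularins, the A form on the left and the G form on the right, with all 9 arrays (filled) and without control replicate 1 (open). MTMR6 is far to the right in both panels, and MTMR12 changes sign when that array is left out.

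MTMR9, the inactive partner of MTMR6, did not pass the test with either form. Its brightest probe set gave 357, 346 and 321 with the A form, 363, 371.5 and 388 with the G form, and 316, 389 and 566 in control. The control values span both miR-376a* groups. The log2 differences were -0.30 (SE 0.17, limma adjusted p = 0.460) and -0.18 (SE 0.17, adjusted p = 0.630). With that low control left out they were -0.45 (adjusted p = 0.0495) and -0.33 (adjusted p = 0.116).

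A second MTMR9 probe set was tighter. It gave 183, 174 and 185 with the A form, 222, 229 and 212 with the G form, and 204, 257 and 230 in control. The A arrays lie below all others, and the other groups overlap. When each of the 54675 probe sets was tested on its own, the difference from control was -0.33 with the A form (SE 0.09, limma adjusted p = 0.191) and -0.08 with the G form (SE 0.09, adjusted p = 0.803). Leaving out control replicate 1 brought the A form past the threshold there, at -0.37 (adjusted p = 0.0414), in a fit that called 3.24% of all probe sets. The third MTMR9 probe set gave 0.05 and 0.00.

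MTM1, myotubularin itself, is mutated in X-linked myotubular myopathy. Its brightest probe set gave 70.2, 75.3 and 66.0 with the A form, 68.1, 68.3 and 70.8 with the G form, and 46.5, 87.0 and 103 in control. All 6 miR-376a* arrays lie between control replicate 1 and the other controls. The log2 differences were -0.02 (SE 0.21, limma adjusted p = 0.982) and -0.05 (SE 0.21, adjusted p = 0.943). Leaving out control replicate 1 gave -0.31 (adjusted p = 0.0477) and -0.34 (adjusted p = 0.0284). Tested over all probe sets, the same probe set did not pass in that fit (0.117 and 0.0765). The other MTM1 probe set was at 0.07 and 0.14 with all arrays, and at -0.27 and -0.21 without that control (limma adjusted p = 0.288 and 0.396).

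MTMR1 is the closest relative of MTM1 and its neighbour in the RefSeq gene order. At its brightest probe set it gave 432, 422 and 476 with the A form, 367, 360.2 and 401 with the G form, and 455, 472 and 507 in control. The G arrays lie below both other groups without overlap. Of the 9 genes 1 had non-overlapping groups in this comparison with control, where 21.1% of all genes did (11.4% higher, 9.72% lower). With the G form the log2 difference from control was -0.37 (SE 0.09, limma adjusted p = 0.0553), the nearest to the threshold of any of the 9. With the A form it was -0.13 (SE 0.09, adjusted p = 0.591).

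The next brightest MTMR1 probe set gave 323, 347 and 337 with the A form, 300.1, 291 and 274 with the G form, and 346, 375 and 446 in control. It showed the same order of the groups, with log2 differences from control of -0.22 and -0.45 in the test of single probe sets (limma adjusted p = 0.464 and 0.0631). Without control replicate 1 MTMR1 fell with the G form, by 0.38 at the gene level (adjusted p = 0.0106) and by 0.49 at that probe set (adjusted p = 0.0163). Weighting the arrays by their quality also brought it past the threshold, at -0.36 (adjusted p = 0.00483).

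MTMR2 is mutated in a demyelinating neuropathy, Charcot-Marie-Tooth disease. Its brightest probe set gave 435, 432 and 388 with the A form, 557, 547 and 539 with the G form, and 306, 455 and 654 in control. The controls span both other groups, which do not overlap each other. Against control the log2 differences were -0.14 (SE 0.20, limma adjusted p = 0.810) and 0.23 (SE 0.20, adjusted p = 0.610). With control replicate 1 left out they were -0.37 (adjusted p = 0.0806) and -0.01 (adjusted p = 0.977). Its next brightest probe set fell with the A form when control replicate 1 was left out, by 0.59 (adjusted p = 0.0429), against -0.39 with all arrays (adjusted p = 0.518).

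MTMR3 and MTMR4 carry a FYVE domain, a module that binds PI3P. MTMR3 averaged 113 ± 20.3 with the A form, 108 ± 21.5 with the G form and 136 ± 17.3 in control (SD, n = 3 each). Its log2 differences from control were -0.25 and -0.30, each with SE 0.15 (limma adjusted p = 0.516 and 0.354). The other MTMR3 probe set that passed the filter gave 0.00 and -0.11. MTMR4 averaged 284 ± 27.9 with the A form, 273 ± 12.9 with the G form and 260 ± 64.4 in control. Its differences were 0.12 and 0.06, each with SE 0.14, and the groups overlapped. Leaving out control replicate 1 gave -0.26 and -0.31 for MTMR3, and 0.00 and -0.07 for MTMR4.

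MTMR14, an active phosphatase linked to autophagy and muscle, gave 117, 138 and 135 with the A form, 150, 142 and 168 with the G form, and 198, 156.5 and 141 in control. It was the exception among the family in that control replicate 1 was its highest control. In the deposited signals the A arrays lie narrowly below all controls. After normalization the groups overlapped, with A form replicate 2 at 7.26 and control replicate 3 at 7.25 on the log2 scale. The log2 difference from control was -0.31 with the A form (SE 0.16, limma adjusted p = 0.396) and -0.10 with the G form (SE 0.16, adjusted p = 0.790). Of the 9 genes 1 had non-overlapping deposited signals between the A form and control, where 19.5% of all genes did (10.5% higher, 9.02% lower). Without control replicate 1 the difference was -0.14 with the A form and 0.07 with the G form (SE 0.10 each).

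The remaining inactive members are MTMR10 and MTMR12, of which MTMR12 is an adaptor that binds MTM1. MTMR12 gave 317, 252 and 216 with the A form, 279, 305 and 293 with the G form, and 99.1, 354 and 358 in control. Control replicate 1 lies below all other arrays, and the other controls lie above all miR-376a* arrays. The direction of its difference depends on control replicate 1. With the A form the log2 difference was 0.12 (SE 0.36, limma adjusted p = 0.925) with all arrays and -0.42 (SE 0.12, adjusted p = 0.0470) without it, and with the G form it was 0.27 and -0.27 (adjusted p = 0.763 and 0.166). Its other probe set gave 48.7 in control replicate 1, between 41.7 and 50.3 in the other controls. There the log2 differences were -0.14 with the A form and 0.04 with the G form, both with all arrays and without control replicate 1. That probe set thus showed no change of sign, and neither difference passed without that array (limma adjusted p = 0.726 and 0.929). MTMR10 averaged 89.0 ± 0.704 with the A form, 101 ± 8.58 with the G form and 100 ± 19.1 in control (SD, n = 3 each), with log2 differences of -0.12 and 0.03 (SE 0.12 each), or -0.21 and -0.07 without control replicate 1.

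Set directly against each other, the 2 forms gave 0 calls among the 10 genes, where 2.63% of all genes were called (1.39% higher, 1.24% lower), and 1 gene, MTMR1, had an unadjusted p under 0.05. Limma's adjusted p ran from 0.348 to 0.995. The deposited signals of 6 of the 10 genes nevertheless did not overlap between the forms, where 28.4% of all genes did not (13.6% higher, 14.8% lower). MTMR2, MTMR6, MTMR9, MTMR10 and MTMR14 (5 genes) were lower with the A form, and MTMR1 was higher.

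For MTMR2 and MTMR1 the deposited signals of the forms did not overlap at any probe set of theirs that passed the filter. For MTMR2 the log2 differences between the A form and the G form were -0.36 (SE 0.20), -0.38 (SE 0.18) and -0.44 (SE 0.15), brightest probe set first. At the second the signals were 110.1, 109 and 122 with the A form against 179.7, 133 and 152 with the G form. At the third they were 91.7, 87.5 and 59.3 with the A form against 113, 110.3 and 115 with the G form. None of the 3 passed over all probe sets, of which 0.704% did (limma adjusted p = 0.835, 0.745 and 0.480). These probe sets target 1 transcript population and are not independent.

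For MTMR1 the differences were 0.24 (SE 0.08), 0.22 (SE 0.09) and 0.15 (SE 0.21) at its 3 brighter probe sets, with adjusted p = 0.433, 0.655 and 0.999 in limma. At the third the deposited signals were 25.44, 30.55 and 25.4 with the A form against 25.09, 25.26 and 18.64 with the G form. These are near the added constant of 16, and after normalization the forms overlapped there. The remaining, dim MTMR1 probe set gave -0.22. At the gene level the difference was 0.24 (SE 0.09, 95% interval 0.03 to 0.45) for MTMR1 and -0.36 (SE 0.20, interval -0.80 to 0.07) for MTMR2, with limma adjusted p of 0.348 and 0.608. Fitting only the 6 arrays compared gave MTMR2 an adjusted p of 0.00825 at an unchanged difference of -0.36. Array weights gave 0.0188 for MTMR2 and 0.0265 for MTMR1, while leaving out control replicate 1 gave 0.0753 and 0.0775.

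**Figure D4:**
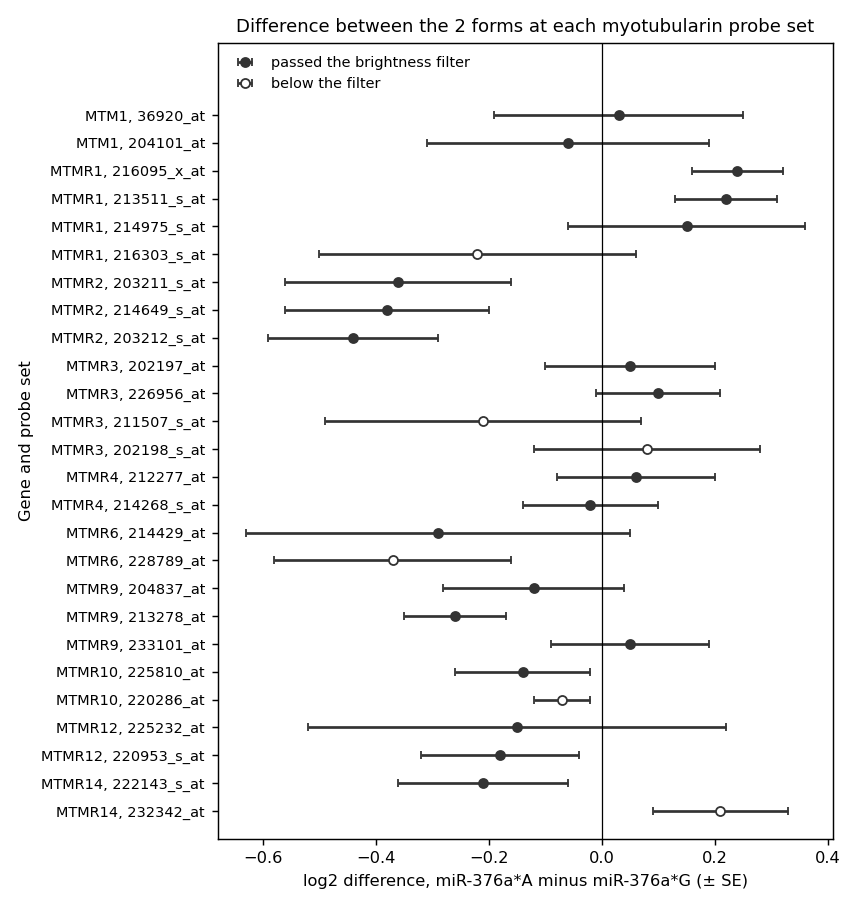
Difference between the A form and the G form in log2 units (± SE) at each of the 26 myotubularin probe sets, filled where the probe set passed the brightness filter and open where it did not. The 3 MTMR2 probe sets lie left of 0 and the 3 brighter MTMR1 probe sets lie right of 0.

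The wider phosphoinositide pathway was followed with 6 lists of 69 genes, of which 61 passed the filter. The lists were drawn up with earlier results of these data known. The adjusted p-values of their genes are therefore not those of genes chosen in advance. With the A form 3 of the 61 rose and 1 fell, and with the G form 2 rose and 0 fell (limma). Between the forms 1 was higher with the A form and 1 lower. Over all genes 3.33%, 4.62% and 2.63% were called in these comparisons, and nothing particular to the pathway is read from these small counts. Both counts of rises include WDFY1, whose rise was known when the lists were drawn up. The median log2 differences over the 61 genes were -0.01, -0.06 and 0.04, against 0.01, 0.01 and 0.00 over all genes. Without control replicate 1, 5 rose and 9 fell with the A form, and 3 rose and 8 fell with the G form, where 6.95% of all genes rose and 6.41% fell with the A form, and 8.51% and 8.48% with the G form.

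The enzymes and regulators that make PI3P (9 of 11 measured, PIK3C3 among them) and those for its bisphosphate PI(3,5)P2 with its channels (6 of 6 measured) had 0 genes called in any comparison with all arrays, where 3.33% (A form), 4.62% (G form) and 2.63% (between the forms) of all genes were called. When control replicate 1 was left out, 1 gene of the PI3P list and 2 of the other fell with the A form, 1 of the PI3P list fell with the G form, and 1 of the other was lower with the A form than with the G form. In that fit 13.4%, 17% and 9.72% of all genes were called in these comparisons (6.41%, 8.48% and 4.59% lower). With all arrays, the genes with an unadjusted limma p under 0.05 numbered 0 and 2 with the A form, PI3P list first. They numbered 1 and 0 with the G form, and 0 and 2 between the forms. PIK3C3, the kinase that makes PI3P, was at 0.11 and 0.20 against control, with limma adjusted p of 0.809 and 0.553.

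Among the proteins that bind these lipids was WDFY1, which carries a FYVE domain. Because it was listed with its rise known, its values are a description with no test. It gave 256, 221 and 192 with the A form, 209, 233 and 205 with the G form, and 33.9, 68.1 and 65.1 in control. All 6 miR-376a* arrays lie far above the controls. The log2 differences were 1.83 (SE 0.21) and 1.78 (SE 0.21), or 1.56 and 1.52 without control replicate 1, and its other probe set gave 1.14 and 1.26.

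ZFYVE26, another FYVE protein, fell with the A form. Its signals were 157, 129 and 121 with the A form, 200, 248 and 247 with the G form, and 259.5, 229 and 223 in control. The A arrays lie below all others. The difference from control was -0.75 (SE 0.14, limma adjusted p = 0.0157) and that from the G form was -0.70 (SE 0.14, adjusted p = 0.0279), while its other probe set gave -0.80 and -0.74. The call between the forms ended without any 1 of the 6 arrays compared (limma adjusted p 0.0504 to 0.15). That against control ended without A form replicate 2 (0.0967) or 3 (0.0934), or with only the 6 arrays compared (0.0743). ANKFY1, a FYVE protein that binds RAB5, rose with the A form, by 0.51 (SE 0.11, limma adjusted p = 0.0396, and 0.0562 to 0.184 without any 1 of the 6 miR-376a* arrays or 0.0953 without control replicate 2). The call also ended with the replicate number as a block (limma adjusted p = 0.0615) and with only the 6 arrays compared (0.141). With the mean of its probe sets it ended too, at 0.38 (limma adjusted p = 0.144). The other ANKFY1 probe set that passed the filter gave 0.24 without passing the test.

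Of 14 measured phosphatases outside the family, SYNJ1, which acts on phosphoinositides in endocytosis, rose with the A form, and INPP5A, an inositol phosphatase, rose with the G form. SYNJ1 averaged 203 ± 15.7 with the A form and 102 ± 39.3 in control (SD, n = 3 each), a log2 difference of 0.99 (SE 0.23, limma adjusted p = 0.0436), with another probe set at 0.12, and 0.68 without control replicate 1. With the G form SYNJ1 averaged 193 ± 18.4, a difference from control of 0.91 (limma adjusted p = 0.0522), and the forms differed by 0.09 (adjusted p = 0.986). Its call with the A form ended in 14 of 20 alternatives, leaving out any miR-376a* array among them (adjusted p up to 0.166 without 1 array and 0.168 with only the 6 arrays compared). The replicate number as a block was another of these (limma adjusted p = 0.0662). INPP5A averaged 248 ± 24.0 with the G form and 141 ± 30.5 in control, a difference of 0.75 (SE 0.14, adjusted p = 0.0125 in limma), and 0.67 without control replicate 1. Its other probe set that passed the filter gave 0.27 with the G form and 0.35 with the A form. Neither of these passed over all probe sets (limma adjusted p = 0.538 and 0.483). With the A form INPP5A was at 0.52 against control (adjusted p = 0.0756), and the forms differed by -0.23 (adjusted p = 0.678). The call with the G form ended without G form replicate 2 (0.0637) or 3 (0.0668), or with only the 6 arrays compared (0.0686).

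KCNN4, the potassium channel that MTMR6 inhibits, was among 6 genes reported to interact with myotubularins. Its signals were 204, 221 and 233 with the A form, 125, 148 and 109.9 with the G form, and 159, 133 and 138 in control. The A arrays lie above all others, and the other groups overlap. KCNN4 was higher with the A form than with the G form by 0.72 on the log2 scale (SE 0.14, limma adjusted p = 0.0219). Against control the differences were 0.55 (SE 0.14, adjusted p = 0.0658) with the A form and -0.17 with the G form (adjusted p = 0.582), neither past the threshold. Leaving out any 1 of the A arrays or G form replicate 1 or 3 ended the call between the forms (adjusted p 0.071 to 0.128).

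**Figure D5:**
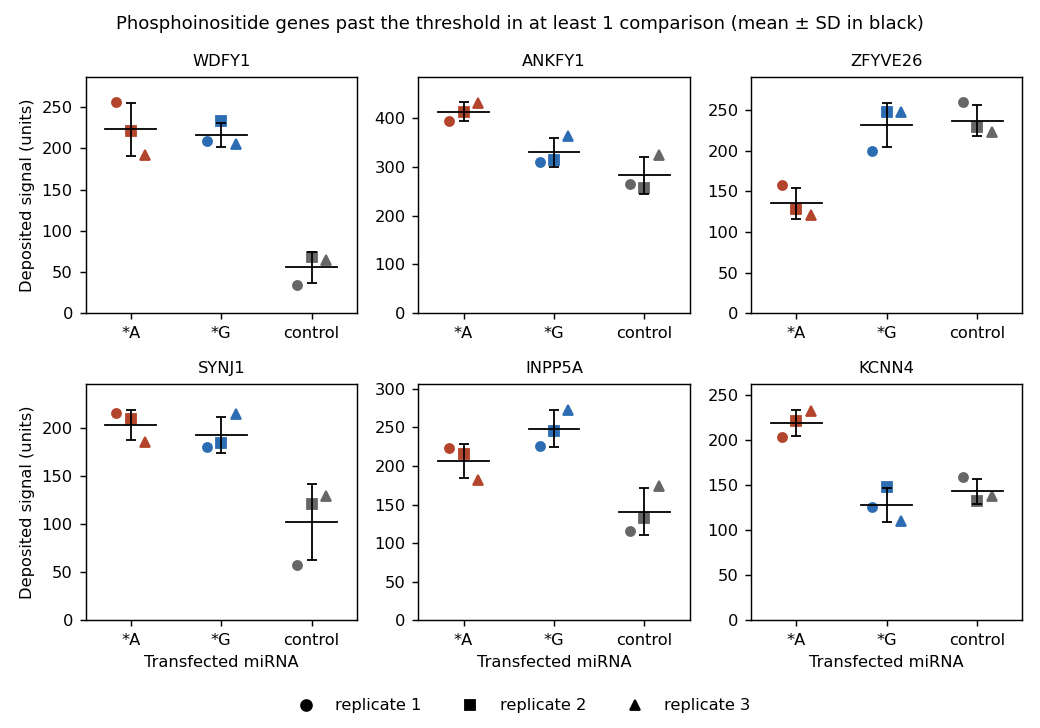
Deposited signal (linear axis from 0) in each array of the 6 genes of the phosphoinositide lists that passed the threshold in at least 1 comparison, by transfected miRNA, with the mean and SD of 3 arrays in black. WDFY1 is high with both miR-376a* forms, and ZFYVE26 and KCNN4 with the A form lie apart from both other groups.

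Over the 9 arrays, the genes whose normalized log2 values followed MTMR6 most closely were GCH1, ZDHHC20, TTC33, NFIB and PCGF6 (the 5 highest of those tested), with Pearson's r of 0.995, 0.994, 0.994, 0.993 and 0.993. These arrays share their 3 groups and the low control replicate 1, so the values describe the pattern only. Each of the 5 genes was higher with both forms and lowest in control replicate 1. ZDHHC20 averaged 470 ± 36.1 with the A form, 472 ± 7.60 with the G form and 148 ± 67.2 in control (SD, n = 3 each). The other myotubularins did not follow MTMR6 closely over the same 9 arrays, with r between -0.71 for MTMR1 and 0.53 for MTMR12.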

How the data were processed

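Expression was measured in 9 arrays of SW1783 cells, 3 biological replicates in each of 3 groups, which the labels give. The deposited values are signal intensities per probe set on a linear scale, which the authors made with GCOS 1.4.0.036, per the submitters' processing notes. Each array's trimmed mean (2% cut at each end) is 100.01, so the deposited intensity values were scaled array by array. How probes were summarised and background removed is not given in the sources used here. Scaling of this kind hides any change in total RNA.

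From these, log2(signal + 16) was quantile normalized. Probe sets with a mean at or above the 50th percentile (5.17 on the log2 scale) were kept, and the brightest one annotated to a single gene stood for the gene (12505 genes, 5993 of which had more than 1 such probe set). Platform annotation gave 1 symbol for 41097 of 54675 probe sets, several for 1801 and none for 11777. Groups were compared with limma 3.58.1 in R 4.3.3 (lmFit and eBayes with an intensity trend, all 3 groups together), with Benjamini-Hochberg adjustment over all genes at 0.05. Single probe sets were tested in the same way over all 54675. The steps were tested on simulated data. An exact permutation test of 3 arrays against 3 cannot go below p = 0.1, so none is given. The number of arrays and their spread limit the precision.

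Same-numbered arrays of miR-376a*G and control deviated together from their group means (r = 0.156, 0.187 and 0.125, each over 0.1), which meets the limit set for pairing. The values given come from the fit without a block. The blocked fit is an alternative, printed where it changes a call or moves a count by over 1.5 times. Those of miR-376a*A and control did not (r = -0.335, 0.032 and -0.361), nor did those of miR-376a*A and miR-376a*G (r = -0.091, -0.098 and -0.031). Alternatives changed the added constant, normalization, filter, choice of probe set, arrays fitted, intensity trend, weights, block and left-out array.

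The members and lists were chosen with earlier results of these data known. Named are all 10 members, up to 3 list genes past the threshold per list and comparison by size of difference, and the 5 genes most correlated with MTMR6.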

Additional observations from a re-analysis of the deposited data

Results flagged for a closer look

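Both genes described here differed between the A form (miR-376a*A) and the G form (miR-376a*G) in the test of that difference itself, which limma made over all genes. The lists that hold them were drawn up with earlier results of these data known. Their adjusted p-values are therefore not those of genes chosen in advance. ZFYVE26 was lower with the A form than with the G form by a log2 difference of -0.70 (SE 0.14, adjusted p = 0.0279), with every A array below every G array. KCNN4 was higher with the A form than with the G form by 0.72 (SE 0.14, adjusted p = 0.0219), with every A array above every G array. Among the 61 list genes measured these were the only calls between the forms, where 2.63% of all genes were called. The deposited signals of 28.4% of all genes did not overlap between the forms. Both calls ended with the replicate number as a block (adjusted p = 0.0772 for ZFYVE26 and 0.0677 for KCNN4). They also ended with 1 array left out, which was any 1 of the 6 arrays compared for ZFYVE26 and any of them but G form replicate 2 for KCNN4. With 3 arrays in each group, single arrays were not tested as outliers.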

How the results depend on the processing

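Of 700 values of single genes under alternatives, 648 kept their side of the threshold, 621 of them with the same sign (the other 27 were called in neither). Most of the 700 belong to results not called with all arrays, which had no call to lose. The 648 therefore do not show how firm the calls are. A call was lost in 43 and gained in 8, and 1 reversed: MTMR12 with the A form was at -0.42 without control replicate 1, in a range up to 0.39 with 1 array left out. Of 20 alternatives each, the call was lost in 14 for SYNJ1 and 10 for ANKFY1 with the A form. Between the forms it was lost in 7 for ZFYVE26 and 6 for KCNN4. Against control it was lost in 3 for ZFYVE26 (A form), 3 for INPP5A (G form) and 0 for WDFY1 (either form). Fitting only the 6 arrays compared gave 156 genes past the threshold with the A form, 204 with the G form and 1292 between the forms, and array weights gave 2315, 2427 and 1656, against 417, 578 and 329. Leaving out 1 array gave 176 to 1670, 236 to 2124 and 143 to 1215 genes, each highest without control replicate 1. The MTMR6 difference from control was 1.78 and 2.05 with log2(signal + 64), 1.69 and 2.02 with array weights, and 1.74 to 2.54 and 2.03 to 2.83 with 1 array left out, with the A form first and the G form second. Between the forms it kept its sign, and its adjusted p was 0.0647 to 1. Myotubularin genes called, 0 in each comparison, became 1 (6 arrays) and 2 (weights) between the forms and 1 (weights) with the G form. With 1 array left out they were 0 to 3 with the A form and 0 to 2 with the G form. Their probe sets, also 0, became 1 (6 arrays) between the forms, 1 (weights) with the A form and 2 (weights) with the G form, and 0 to 2 against control with 1 array left out. The share of all probe sets called was not counted with 6 arrays or with weights. Nothing particular to the family is therefore read from those probe set counts. Without control replicate 1, 3.24% and 4.36% of all probe sets were called against control. Pathway genes called were 4 with the A form (1 with 6 arrays, 17 with weights, 1 to 14 with 1 array left out), 2 with the G form (5 with the mean of a gene's probe sets, 1 with 6 arrays, 13 with weights, 1 to 11 with 1 array left out) and 2 between the forms (8, 10, and 0 to 6). The replicate block gave 360 genes past the threshold with the G form, and 2 and 0 pathway genes with the A form and between the forms, and it changed no call of a myotubularin. The pathway and single probe set values under alternatives were added after the data were seen. The cause of these shifts was not tested. Dim probe sets limit what can be seen, since differences near the added constant are understated.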

Other observations

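SBF1 and SBF2, inactive relatives of the myotubularins that bind MTMR2, were named after their values were seen. Their adjusted p-values are therefore a description and not a test. SBF1 gave 113, 121 and 120 with miR-376a*A against 90.1, 94.9 and 91.3 with miR-376a*G, without overlap. The log2 difference was 0.31 (SE 0.10, limma adjusted p = 0.177, and 0.0216 without control replicate 1), and its other bright probe sets gave 0.04 and 0.19. SBF2 gave 246, 225 and 209.5 with miR-376a*A against 150, 171 and 163.5 with miR-376a*G, also without overlap. Its difference was 0.46 (SE 0.22, limma adjusted p = 0.523, and 0.00543 without control replicate 1), and its other bright probe set gave 0.17. MTMR11, the other measured gene of that list, overlapped between the forms, at 0.06 (limma adjusted p = 0.987, and 0.784 without control replicate 1). Over all genes 28.4% did not overlap between the forms, and 9.72% were called without control replicate 1.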
